A study of Mus musculus with 2 samples.

Results

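Accessible chromatin at 10 effector genes of mast cells and basophils was described in the mouse cell line G1E from ATAC-seq peak lists. The genes were Cpa3, Cma1, Tpsb2, Mcpt8, Fcer1a, Ms4a2, Hdc, Il1rl1, Cd200r3 and Mitf, chosen by name among 21938 protein-coding genes of GENCODE M21. The genes and the motifs matched below were chosen with earlier results of these data known. All accessible regions that overlapped a gene body or lay within 50 kb of it were taken, which gave 29 of the 25799 regions of the series. ATAC-seq marks open DNA with a transposase that cuts it and inserts sequencing adapters. The series held 1 group, G1E cells that lack Gata1, with 2 biological replicates of 50000 cells each and no second condition. The labels give the strain as C57BL/6J and the cells as male, postnatal and of age 0 day, with both replicates under the same donor record, and they do not state whether the replicates were separate cultures. G1E is 1 line that grows as erythroid progenitors and does not mature without GATA1, so nothing below compares it with a mast cell.

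Mast cells and basophils store histamine and proteases in granules and release them when antigen joins IgE molecules bound to the high-affinity IgE receptor. The proteases include carboxypeptidase A3, chymases and tryptases, and histamine is made from histidine by the enzyme that Hdc encodes. The cells arise from progenitors that also give rise to erythroid and megakaryocytic cells. GATA factors act in all of these lineages, with GATA2 required for mast cells, and the basic helix-loop-helix factor MITF controls many mast cell genes.

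Listed regions were found near 8 of the 10 genes and near none of the other 2, where 27.6% of all protein-coding genes had none, and 20 of the 29 regions were listed in both replicates. Replicate 1 listed 24 of them and replicate 2 listed 25. Il1rl1 had 8 regions, Cpa3 6, Cd200r3 5, Cma1 4, Fcer1a and Hdc 2 each, and Mcpt8 and Ms4a2 1 each, while Tpsb2 and Mitf had none. No region was shared by any of the 10 genes. Of the 29 regions, 20 (69.0%, with a 95% exact binomial interval of 49.2% to 84.7%, which covers counting error alone) were in both replicates, against 67.5% of all regions of the series. Peak lists give no read totals, so the depth is unknown and a gene without a listed region cannot be called closed.

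**Figure D1:**
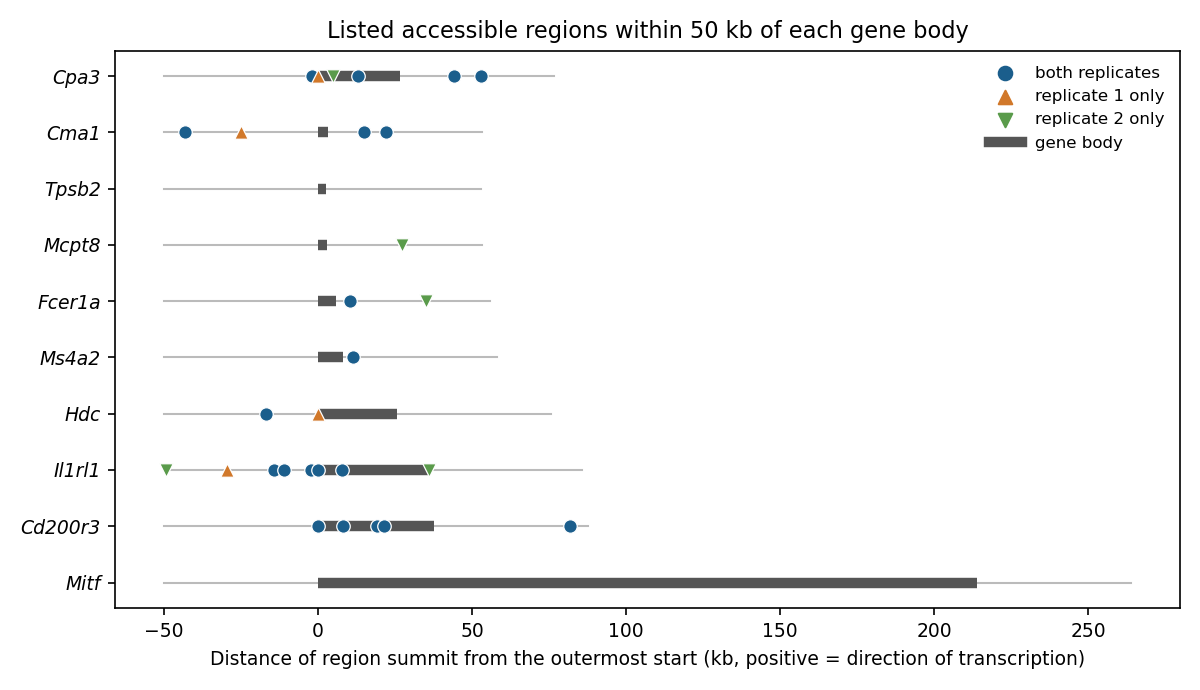
Positions of the 29 listed regions around the 10 genes, plotted as the distance of each region's summit from the gene's outermost annotated start in kb, with the gene body as a thick bar and the 50 kb flanks as a thin line. Circles mark regions in both replicates and triangles those in 1 replicate; Il1rl1, Cd200r3 and Cpa3 carry most of the marks, and the lines of Tpsb2 and Mitf carry none.

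Most of the listed DNA lay away from start sites. Of the 29 regions, 21 (72.4%) were distal, meaning over 1000 bp from every annotated start of any gene, against 54.1% of all regions. Among the distal regions, 15 were intergenic and 6 intronic. A further 6 lay within 1000 bp of a start of 1 of the 10 genes, and 2 lay at starts of the neighbours Olfr1404 and Il18r1. A distal region in both replicates was present near 6 of the 10 genes, against 38.8% of protein-coding genes. This share was not particular to them. Among marker genes of other lineages, such a region lay near 9 of 10 erythroid and 2 of 5 megakaryocyte genes. It lay near 3 of 5 granulocyte and macrophage genes and 3 of 5 lymphoid genes. The erythroid genes include clustered globin genes, which can share regions. Any region in both replicates was present near 7 of the 10, against 68.2%. The median gene of the 10 had 1 distal region in both replicates and 1 region of any class in both, while the medians over all protein-coding genes were 0 and 2.

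A promoter region, that is a region within 1000 bp of any transcript start of the gene, was listed for 4 of the 10 genes in replicate 1 and for 2 in replicate 2. The shares over all protein-coding genes were 40.5% and 42.1%. Il1rl1 and Cd200r3 had one in both replicates (39.1% of all genes), and Cpa3 and Hdc in replicate 1 alone. In the authors' more lenient lists Cpa3 had one in both as well, which made 3 of 10, against 43.3% of all genes. Of the 9 genes with an entry among the RefSeq promoters, 8 have a CpG observed to expected ratio under 0.25 in all their entries, against 24.7% of protein-coding genes with an entry. Mitf is the exception. Over all genes with such CpG-poor promoters, 5.55% had one in both replicates, and 2 of these 8 genes did.

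**Figure D2:**
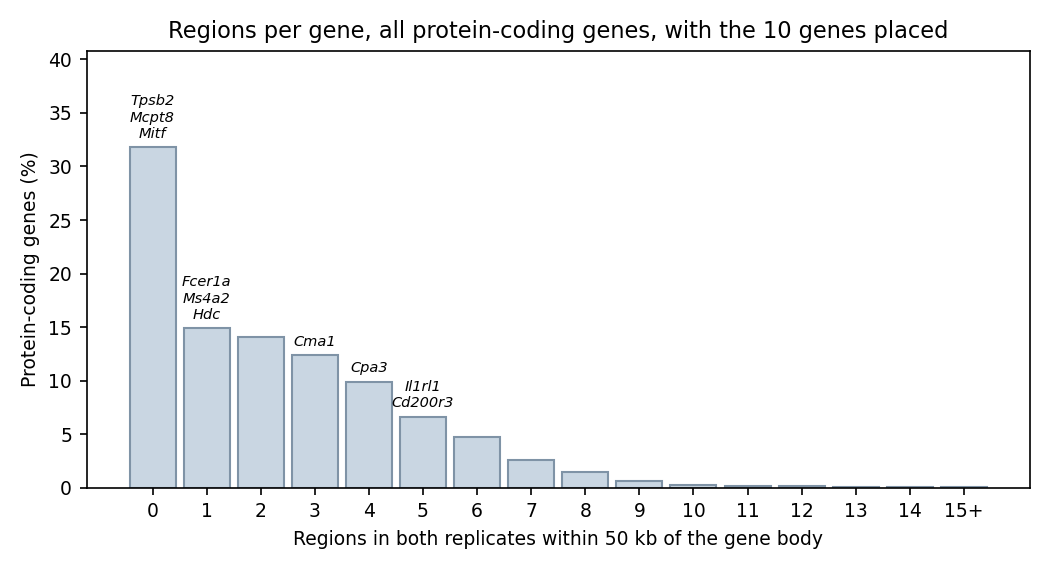
Share of protein-coding genes (percent, vertical axis) by how many regions of their 50 kb windows were in both replicates (horizontal axis), with the 10 genes written above the bar of their own number. Il1rl1 and Cd200r3 stand at 5, Cpa3 at 4 and Cma1 at 3, while Tpsb2, Mcpt8 and Mitf stand at 0, the bar that holds 31.8% of genes.

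Among the surface receptors, Cd200r3 had 5 regions, and all 5 were in both replicates. It encodes an activating relative of the CD200 receptor that basophils and mast cells carry, and lies on chromosome 16 (44943678 to 44981380, plus strand). The start site itself was accessible, with a summit 31 bp upstream of the outermost start (44943401 to 44943875) and a deposited signal of 12.6 in each replicate. The signal is the enrichment value that the authors' peak caller gave each peak, and is compared here within 1 list at a time, as a percentile of that replicate's regions. The strongest region of all 29 lay 8.30 kb inside the gene in an intron (44951640 to 44952314), with a signal of 15 and 15.9, at the 93.2 and 91.6 percentiles. Further regions lay 19.3 kb inside the gene (signal 8.88 and 12.7), 21.4 kb inside beside a start of a shorter transcript (5.43 and 5.88), and 81.9 kb from the start in intergenic DNA beyond the gene (12.5 and 14.7). The intronic region 8.30 kb inside was the highest of the 5 and the inner start the lowest in both replicates, while the start region ranked above the 19.3 kb region in replicate 1 and just below it in replicate 2. Sequences are shown, here and below, for the start regions in both replicates and for the strongest region in both of 6 genes (Mcpt8 has no region in both, and that of Fcer1a lies in an untranslated exon), because the GATA and RUNX letters in them are what the motif results count. Each is up to 200 bases around the summit on GRCm38 (mm10) from RefSeq, with the GATA letters AGATAA or TGATAA and the RUNX letters TGTGGT in capitals, on either strand.
Cd200r3 start region, upstream part, chr16:44943547-44943677, plus strand: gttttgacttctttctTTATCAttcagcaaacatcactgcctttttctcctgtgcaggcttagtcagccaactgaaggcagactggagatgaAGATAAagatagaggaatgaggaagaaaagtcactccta
Cd200r3 intronic region, 8.30 kb, chr16:44951877-44952076, plus strand: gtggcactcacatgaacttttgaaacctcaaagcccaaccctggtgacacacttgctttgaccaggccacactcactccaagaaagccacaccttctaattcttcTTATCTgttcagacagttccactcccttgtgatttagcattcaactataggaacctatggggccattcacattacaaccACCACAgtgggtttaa
Cd200r3 region at an inner start, 21.4 kb, chr16:44964944-44965143, plus strand: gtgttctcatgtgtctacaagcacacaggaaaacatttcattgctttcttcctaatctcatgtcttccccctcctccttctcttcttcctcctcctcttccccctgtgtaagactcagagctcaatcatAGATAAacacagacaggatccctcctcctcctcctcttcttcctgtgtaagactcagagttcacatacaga

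The first of these sequences stops at the annotated start of the transcript. The inner start region holds long runs of C and T, and 53.5% of its 200 bases are soft-masked as repeat in the reference. How reads that align to several places were handled is not given in the sources used here.

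Il1rl1, which encodes the interleukin 33 receptor chain ST2 through which mast cells and basophils respond to tissue damage, had 8 regions, the most of the 10 genes, and 5 of them were in both replicates. The gene lies on chromosome 1 (40429570 to 40465415, plus strand). Its start region (40429013 to 40429670, summit 126 bp upstream) had a signal of 10.1 in replicate 1 and 13.0 in replicate 2, and summits 5 bp apart. Upstream, regions in both replicates were listed 2.15 kb (signal 4.95 and 4.39), 10.9 kb (10.9 and 10.6) and 14.4 kb (4.83 and 5) from the start. The region 10.9 kb upstream was the strong one of these, while the other 2 lay below the 10th percentile in each list. An intronic region 7.93 kb inside the gene (40437092 to 40437858) had a signal of 8.70 and 8.78, and counted as a promoter region since an inner start lies 0.914 kb from its summit. The remaining 3 regions, 49.3 kb and 29.6 kb upstream and at the start of the neighbouring Il18r1, were each in 1 replicate, with signals of 4.93, 6.52 and 5.90. The sequences of the start region and of the intronic one at an inner start each carry 2 GATA matches.
Il1rl1 start region, chr1:40429344-40429543, plus strand: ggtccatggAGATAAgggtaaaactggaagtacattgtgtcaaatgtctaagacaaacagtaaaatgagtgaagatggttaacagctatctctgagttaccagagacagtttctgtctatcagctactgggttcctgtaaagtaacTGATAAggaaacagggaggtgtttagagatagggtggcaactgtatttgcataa
Il1rl1 intronic region, 7.93 kb, chr1:40437403-40437602, plus strand: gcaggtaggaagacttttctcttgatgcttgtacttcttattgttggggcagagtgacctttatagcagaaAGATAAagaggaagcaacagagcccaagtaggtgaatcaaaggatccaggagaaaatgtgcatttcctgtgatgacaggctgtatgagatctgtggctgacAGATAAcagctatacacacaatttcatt

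Of the granule proteases, Cpa3 had the most regions, 6, of which 4 were in both replicates. It encodes carboxypeptidase A3, a protease stored with heparin in mast cell granules, and lies on chromosome 3 (20215620 to 20242181, minus strand) with Cpb1 as its one coding neighbour within 50 kb. A strong region lay 2.00 kb upstream of the start (20243799 to 20244371), with a signal of 13.4 and 14.1 and summits 2 bp apart. The region with the highest mean percentile of the gene, 90.0, lay beyond its end, 52.8 kb from the start (20189032 to 20189656; signal 14.9 and 14.5). These regions stood at or above the 85.2 percentile in both lists. An intronic region 12.9 kb inside the gene was weaker in replicate 1 (7.23) than in replicate 2 (10.6) by rank, at the 39.8 and 64.8 percentiles. A weak intronic region 4.94 kb inside was in replicate 2 alone (4.64), with 3 GATA matches. Beyond the gene, 44.1 kb from the start, a region of middle rank (7.58 and 8.15) held 2 E-boxes of the MITF type. The start site had a region in replicate 1 (20242111 to 20242380; signal 5.58, percentile 17.4), which the strict list of replicate 2 did not hold. The lenient list of replicate 2 held it, and its IDR between replicates, the irreproducible discovery rate that the authors' list gives for a peak's rank, was under 0.05 (−log10 of 1.85).
Cpa3 downstream region, 52.8 kb, chr3:20189315-20189514, plus strand: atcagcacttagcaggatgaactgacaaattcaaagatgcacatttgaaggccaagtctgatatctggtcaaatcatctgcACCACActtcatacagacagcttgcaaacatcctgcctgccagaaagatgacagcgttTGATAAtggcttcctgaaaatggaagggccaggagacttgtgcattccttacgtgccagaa

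The chymase and protease cluster on chromosome 14 holds Cma1 and Mcpt8, 137 kb apart. Cma1 encodes mast cell chymase, and Mcpt8 a protease that in mice marks basophils. Cma1 (55941451 to 55944675, minus strand) had no region at its start in either the strict or the lenient lists. Regions in both replicates lay 43.1 kb upstream (55987484 to 55987951; signal 11.6 and 10.9), 14.9 kb downstream of the start (6.80 and 4.97) and 22.1 kb downstream of it (11.0 in each). A region 25 kb upstream, in an intron of the related gene Cma2, was in replicate 1 alone (6.27). The strong regions of Cma1 were thus intergenic and on either side of the gene, and 47.0% of the 200 bases of the one 22.1 kb downstream are soft-masked as repeat. Mcpt8 (56082166 to 56085273, minus strand) had 1 region, 27.3 kb downstream of its start, in replicate 2 (signal 5.76), and its start lay 54.1 kb from the nearest region in both. Between the genes 6 regions were listed, 3 of them in both replicates, and 1 of those 3 lay at the start of Mcpt9, another protease of the cluster (signal 7.65 and 10). Another of the 3, outside both 50 kb windows, had a signal of 12.3 and 14.3. These proteases are closely related in sequence, and reads from near-identical stretches could have been placed at more than 1 of them or left out.
Cma1 upstream region, 43.1 kb, chr14:55987664-55987863, plus strand: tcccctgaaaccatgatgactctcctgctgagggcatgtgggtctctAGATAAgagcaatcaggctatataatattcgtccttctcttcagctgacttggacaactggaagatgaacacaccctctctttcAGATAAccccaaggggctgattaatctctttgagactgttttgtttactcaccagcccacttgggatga

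Tpsb2, which encodes a mast cell tryptase (chromosome 17, 25366305 to 25369098, plus strand), had no listed region within 50 kb. The nearest lay 72.3 kb away, and 23.8% of protein-coding genes lie at least that far from a region. The related tryptase gene Tpsab1, which lies within the same window, had no promoter region in either replicate and 1 region in both within its own 50 kb. In the lenient lists replicate 2 had a region 2.39 kb upstream (signal 5.18) and replicate 1 another 42 kb downstream (3.42), so the replicates did not list the same DNA.

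The genes of the alpha and beta chains of the IgE receptor had few regions and none at their starts. The gamma chain gene Fcer1g, not among the 10, had 5 regions within 50 kb and none at its start. Of these, 4 were in both replicates, and none of the 4 was distal. Fcer1a encodes the IgE-binding alpha chain, and Ms4a2 the beta chain that amplifies the signal. At Fcer1a (chromosome 1, 173221284 to 173227214, minus strand), the 1 region in both replicates lay beyond the gene, 10.5 kb downstream of the start (173216313 to 173216927; signal 8.71 and 7.63). It is also within 1000 bp of a start of the olfactory receptor gene Olfr1404, in an annotated untranslated exon of it, and is therefore counted as that gene's promoter region. A second region 35.0 kb downstream was in replicate 2 (7.38). At Ms4a2 (chromosome 19, 11615523 to 11623719, minus strand), the 1 region lay 11.3 kb downstream of the start and beyond the gene's end (11612167 to 11612842). Its signal of 5.81 and 6.56, at the 21.3 and 24.2 percentiles, was low, yet its 200 bases held 4 GATA matches, the most of the 29 regions. The lenient lists of both replicates held a further region beside it, 10.4 kb from the start (5.75 and 4.91).
Ms4a2 downstream region, 11.3 kb, chr19:11612366-11612565, plus strand: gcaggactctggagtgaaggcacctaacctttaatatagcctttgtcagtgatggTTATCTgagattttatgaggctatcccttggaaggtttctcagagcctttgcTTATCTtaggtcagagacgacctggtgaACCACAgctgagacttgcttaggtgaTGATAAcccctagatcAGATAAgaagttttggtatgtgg

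Hdc, the histidine decarboxylase gene (chromosome 2, 126593667 to 126619299, minus strand), had 1 region in both replicates and 1 in replicate 1. The shared region lay 16.8 kb upstream in an intron of the neighbouring Gabpb1 (126635833 to 126636329), with a signal of 8.36 and 13.7 at the 52.4 and 83.0 percentiles. That gap of ranks was the widest of the 20 regions in both. The region at the start, with its summit 126 bp upstream, had a signal of 5.62 in replicate 1 (percentile 17.9), and neither list of replicate 2 held one there.
Hdc upstream region, 16.8 kb, chr2:126636030-126636229, plus strand: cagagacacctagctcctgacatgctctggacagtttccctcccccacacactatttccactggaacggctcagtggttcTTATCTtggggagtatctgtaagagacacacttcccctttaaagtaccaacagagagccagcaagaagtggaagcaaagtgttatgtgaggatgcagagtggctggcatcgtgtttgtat

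Mitf, the gene of the mast cell and pigment cell factor, had no listed region over its body of 214 kb and both flanks (chromosome 6, 97807052 to 98021349, plus strand). The nearest region lay 595 kb away, and 5.84% of protein-coding genes lie at least that far from a region, the median gene lying 0.506 kb away. A window without any region was seen for 34.3% of the 998 genes whose window spans 300 kb or more. None of its 7 annotated starts had a region in the lenient lists either. Those lists held 3 regions in the window, 59.6 kb inside the gene and 230 kb from its start, beyond its end, in replicate 1 (3.42 and 3.99) and 65.4 kb inside it in replicate 2 (2.81), none of them in both. Of its 3 RefSeq promoters, the upstream one is at the 75.2 percentile of CpG observed to expected ratio (0.752). Over all genes with a RefSeq promoter at a ratio of 0.6 or more, 64.9% had a promoter region in both. Its relatives Tfe3 and Tfeb, which encode factors of the same family, each had such a region (signal 12.8 and 13.0, and 12.5 and 11.4), and Tfec had none.

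The replicates placed most shared regions closely. Summits were a median of 26.5 bp apart in the 20 regions in both, against 18.0 bp over all regions in both, and 16 of the 20 were within 100 bp. The largest gap, 368 bp, was in the weak Il1rl1 region 14.4 kb upstream. The median percentile of the 20 was 56.8 in replicate 1 and 65.9 in replicate 2, against 58.4 and 60.7 over all regions in both. For the 15 distal ones among them it was 57.5 and 66.9, against 51.4 and 52.5. In the authors' between-replicate list, 19 of the 20 reached an IDR of 0.05, the exception being the Cma1 region 14.9 kb downstream. Distal regions of the series were in both replicates in 59.0% of cases, and here 15 of 21 were.

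Regions listed in 1 replicate were weak, with percentiles from 4.47 to 33.8 and a median of 17.4. Of these 9 regions, 6 were held by the lenient list of the other replicate, and 3 reached an IDR of 0.05, among them the Cpa3 start region. The promoter count thus differed between replicates by the weak start regions of Cpa3 and Hdc, listed in replicate 1 alone.

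**Figure D3:**
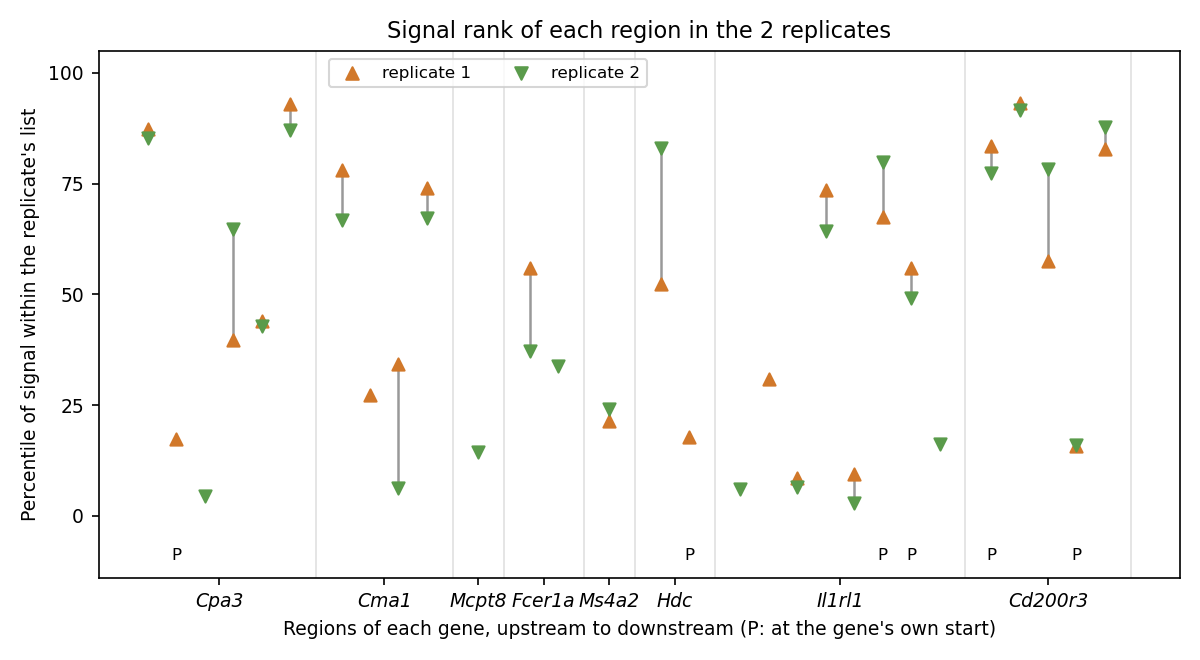
Percentile of signal within each replicate's own list (vertical axis) for each of the 29 regions, grouped by gene and ordered from upstream to downstream, with upward triangles for replicate 1, downward triangles for replicate 2, and a line where a region is in both. P marks regions at the gene's own start; the Cpa3 and Hdc start regions have 1 triangle each, below the 20th percentile, and the Cd200r3 region near the top has both triangles above 90.

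GATA matches were present in 15 of the 21 distal regions (71.4%; exact binomial 95% interval 47.8% to 88.7%, for counting error alone), against 52.0% of all distal regions. Among the distal regions in both replicates, 12 of 15 had a match, against 59.9%. At each replicate's own summits the shares were 13 of 17 (76.5%) and 16 of 19 (84.2%), against 56.0% and 53.9% of all distal regions. Regions with 2 or more matches numbered 8 of 21, against 18.6%.

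The RUNX letters TGTGGT were found in 11 of the 21 distal regions (52.4%; interval 29.8% to 74.3%), against 23.1% of all distal regions. Runx1, a regulator of blood progenitors, binds this consensus. The 11 regions belong to 6 of the genes, namely Cpa3, Cma1, Mcpt8, Ms4a2, Il1rl1 and Cd200r3, and 9 of the 21 held both RUNX and GATA letters, against 12% of all distal regions (1675 of 13952). At each replicate's own summits 9 of 17 (52.9%) and 9 of 19 (47.4%) had the RUNX letters, against 23.4% and 23.6%. With 1 more base required (TGTGGTT) the share was 19%, against 10.1%, and over whole regions it was 52.4%, against 36.4%. Regions near 1 gene share their surroundings and are not independent, so no test was made. The intervals for RUNX and GATA take the regions as independent and can be too narrow. Of the 11 motifs matched, RUNX differed most from its background in percentage points.

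For the other motifs the counts lay closer to the background. The ETS letters GGAAGT, which every PU.1 match (GAGGAAGT) contains, were in 5 of 21 regions, against 24.4%. The E-boxes CACGTG and CATGTGA, of the kind MITF binds, were in 2, the Cpa3 region 44.1 kb from the start and the Cd200r3 region 8.30 kb inside, against 10.4%. The AP-1 letters TGAGTCA were in 2, against 11.5%. STAT (TTCNNNGAA) and CTCF matches (CCA, any 2 bases, AG, any 2 bases, GGC) were in 0 of 21, and the backgrounds were 7.06% and 8.46%. A count of 0 allows a share of up to about 14.3%. That limit is the approximate rule of 3 counts over the 21 regions, not the exact interval used above. C/EBP (TTGCNNAA) and KLF (CCACACCC) matches were in 2 and 1 of 21, against 7.98% and 4.54%. A match is a run of letters and does not show that a factor was bound.

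**Figure D4:**
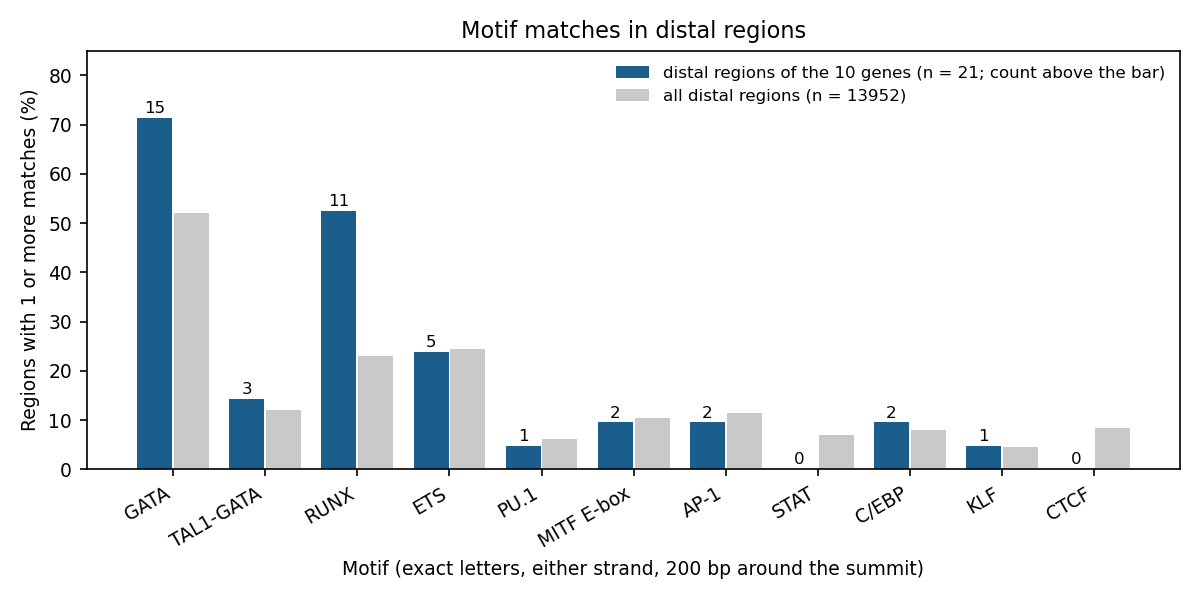
Share of distal regions with at least 1 match (percent, vertical axis) for 11 motifs, in the 21 distal regions of the 10 genes (dark bars, counts above) and in all 13952 distal regions of the series (light bars). GATA stands at 71.4% against 52.0% and RUNX at 52.4% against 23.1%, and the STAT and CTCF bars of the 10 genes are at 0.

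Composite TAL1-GATA letters, CTG followed by 7 or 8 bases and then AGATAA or TGATAA, each of which contains a GATA match, were in 3 of 21 distal regions, against 12.1%. Over all 29 regions they were in 7 (24.1%), against 7.64% of all regions of the series, and the 7 belong to Cpa3, Cma1, Fcer1a, Il1rl1 and Cd200r3. The 2 sets differ in class, with 72.4% of the 29 distal against 54.1% of all regions. Promoter regions of the series held the letters in 2.20% of cases. Of the 7, those that were not distal lay at starts of Cpa3, Il1rl1, Cd200r3 and the neighbour Olfr1404. The 8 matches are printed from CTG to GATA, with those ends in capitals. The spacers can be any bases by the definition, and their likeness between genes was not measured.
Cpa3 start region (replicate 1), chr3:20242222-20242237, minus strand: CTGttcgtcgAGATAA
Cpa3 intronic region, 12.9 kb, chr3:20229186-20229202, minus strand: CTGcaaatgaaAGATAA
Cma1 region in Cma2, upstream (replicate 1), chr14:55969682-55969697, minus strand: CTGcaatgcaAGATAA
Fcer1a downstream region, first match, chr1:173216669-173216685, minus strand: CTGataccataAGATAA
Fcer1a downstream region, second match, chr1:173216759-173216775, plus strand: CTGgaggaatgAGATAA
Il1rl1 intronic region, 7.93 kb, chr1:40437564-40437580, plus strand: CTGtggctgacAGATAA
Cd200r3 start region, chr16:44943629-44943644, plus strand: CTGgagatgaAGATAA
Cd200r3 intronic region, 8.30 kb, chr16:44951982-44951997, minus strand: CTGtctgaacAGATAA

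GATA letters were also frequent at the start sites. All 6 regions at a start of the genes (2 each at Il1rl1 and Cd200r3, 1 each at Cpa3 and Hdc) held a GATA match, against 11.1% of all promoter regions of the series. Of these 6, 4 had a CpG observed to expected ratio under 0.25 in the 200 bases, as did 1005 of all 10835 promoter regions. Among those 1005, 42.1% held a match. In the RefSeq promoters (250 bases before to 50 after a start, GRCm38), which cover 9 of the 10 genes in 12 entries, 8 entries of 6 genes held a match. The share was 18.6% over all RefSeq promoters and 28.0% over the CpG-poor ones. Matches were thus present at the starts of Fcer1a, Ms4a2 and Mitf too, where neither list had a region. Conversely, the Hdc start region held 2 matches, while the RefSeq promoter of Hdc (126618629 to 126618928) held none.

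Other genes of mast cell and basophil biology were described in the same way, 55 genes in 5 groups. A promoter region in both replicates was listed for 20 of them, in 1 replicate for 6 and in neither for 29, where 39.1% of all protein-coding genes had one in both. A distal region in both replicates lay within 50 kb of 39 of the 55, against 38.8% of all. Neighbouring genes among the 55, such as Mcpt2 and Mcpt4, can share regions, so the 55 are not independent. Some also lie in the windows of genes described above, as Cma2 does for Cma1 and Mcpt4 for Mcpt8. A region can therefore count for genes of both sets. The counts by group below are of promoter regions in both, to be read against the same 39.1%. Transcription factors had 7 of 12, among them Runx1, Tal1, Spi1 and Stat5a, but not Gata2 or Bhlhe40. Surface receptors had 6 of 12. These were Kit, the stem cell factor receptor (signal 6.77 and 7.10), the interleukin 3 receptor chains Il3ra, Csf2rb and Csf2rb2, the adenosine receptor Adora3 and the surface enzyme Enpp3. IgE receptor signalling had 3 of 11, the kinases Lyn and Fyn and the phospholipase Plcg1, which act in many cell types, and not Fcer1g or Syk. Granule proteases and proteoglycan had 2 of 12, Mcpt9 and the heparin-synthesis enzyme Ndst2, while Tpsab1, Mcpt4, Ctsg and Gzmb had none. Mediator synthesis had 2 of 8, Tph1, which makes serotonin's precursor, and Alox5ap of the leukotriene pathway.

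The series as a whole listed 21194 regions in replicate 1 and 22620 in replicate 2, of which 17425 joined regions were in both. Erythroid markers, those of the labelled cell type, had a promoter region in both for 7 of 10, in 1 replicate for 1 and in neither for 2, against 39.1% of all protein-coding genes in both. The 10 include the alpha-globin genes Hba-a1 and Hba-a2, both among the 7, and the beta-globin genes Hbb-bs and Hbb-bt. Genes of 1 cluster can share regions and related sequence, so these markers are not independent. Gata1, which the line lacks by its label, had a region at its start (signal 5.23 and 5.93), which does not check the deletion. Megakaryocyte markers had one in both for 2 of 5, lymphoid markers 1 of 5 and granulocyte and macrophage markers 0 of 5. Whether some of the cells were of another type was not tested.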

How the data were processed

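ATAC-seq of G1E cells was analysed from the peak lists of 2 replicates on mm10, per the labels and the READMEs beside the files. The authors deposited a signal value and a −log10 p per peak. The main lists are IDR thresholded, the lenient ones pseudoreplicated, and a further list ranks peaks between replicates by −log10 IDR, per the submitters' notes on the files. Aligner, peak caller and version: not given in the sources used here. Depth per sample is unknown, since no read totals were used.

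Overlapping or touching peaks of a replicate were merged (26083 and 27810 peaks), keeping the signal of the strongest, and the replicates' regions were joined by 1 bp of overlap or touch. Genes came from GENCODE M21, and sequences from RefSeq GRCm38.p6, whose bases matched the first 20 of 45 of 45 transcripts of the genes. Motifs were matched as exact letters on both strands in 200 bp around the summit of the replicate with the higher percentile. Merging, joining and matching were tested on simulated data (15 of 15 checks recovered). Python 3.11.15, SciPy 1.17.1 and pysam 0.24.0 were used.

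No test was made: there is 1 group. The genes, lists and motifs were chosen with earlier results of these data known. All 10 genes are named, with promoter, nearest and strongest regions. Sequences follow a rule (the strongest region in both replicates and start regions in both), and bases in untranslated exons are not printed except the 2 short Fcer1a composite matches. Alternatives were lenient, stronger or pooled lists, each replicate alone, and other windows, overlaps and motif letters.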

Additional observations from a re-analysis of the deposited data

How the results depend on the processing

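With the lenient lists 55 regions lay near the genes, with the stronger 50% of regions 14, and within 100 kb 54, as fewer or more regions are admitted by construction. Leaving out a replicate gave 25 regions in each case and 2 to 4 genes with a promoter region, the 4 being replicate 1 alone, without replicate 2. The GATA share was 77.8% (14 of 18) without replicate 2 and 84.2% (16 of 19) without replicate 1, against 55.8% and 53.7% of all distal regions there. Here the regions and summits were those of the remaining list alone, where a joined region can be 2 regions. With the lenient lists the share was 62.8% (38.4% of all distal regions there). Among the stronger 50% of regions it was 90.0% (9 of 10), against 61.7% of all such distal regions. It was 90.5% when AGATAG and TGATAG counted too (61.4% of all). The share in both replicates stayed within its interval under the 3 alternatives run. The RUNX share, whose alternatives were chosen after seeing the data, ranged from 19% (TGTGGTT) to 60% over 8 alternatives. No paired analysis was possible because there is 1 group. Unknown depth limits every statement on unlisted regions.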
